A study of Capra hircus with 9 samples.

Results

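Mammary gland tissue of 3 goats in late gestation (LG, 140 days after mating) was compared with that of 3 goats in late lactation (LL, 240 days postpartum) across all genes, so 6 of the 9 libraries of the series carry the comparison. The other 3 libraries come from the dry period (DP) and entered the fit only to help estimate the spread. Each library is from 1 healthy Laoshan dairy goat, a Chinese milking breed, kept on one farm; the goats were of the third parity and about 4 years of age on average. They were slaughtered for sampling, so each animal gives a single stage. Whole tissue was used, and fewer cells of a type and less RNA per cell cannot therefore be told apart in any value below.

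In lactation the alveolar epithelium makes casein, whey protein, lactose and milk fat, and secretes them together. Towards its end, yield falls and the epithelium starts to be lost. In late pregnancy, under progesterone, prolactin and placental lactogen, the alveoli grow and acquire the machinery of secretion, while copious milk appears only around birth. The comparison therefore sets a gland that is being built against one at the end of its use.

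For each gene the authors deposited 1 value per library, read here as FPKM (fragments per kilobase of transcript, scaled to the size of the library), for 23499 genes. FPKM is a share of a library, and a few genes took most of the LL libraries. The values were therefore divided by a factor for each library (0.498 to 0.605 in LL and 1.20 to 1.31 in LG) and are given below as scaled FPKM. Fold changes (log2FC) are differences LG minus LL of log2(scaled FPKM + 1), a scale that makes changes at low levels look smaller than they are. They were fitted with limma and are given ± standard error with their Benjamini-Hochberg adjusted p. Genes were called where the adjusted p was below 0.05 and the log2FC was 1 or more, or -1 or less. The within-stage correlation of log2 values was 0.975 to 0.980 in LL and 0.961 to 0.972 in LG, and 0.833 to 0.848 between the stages. The number of fragments behind each value is not known here, and the error given is that between goats.

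Of 14701 genes tested, 1572 were called higher in LG (10.7%) and 972 were called lower (6.61%), and the median of all genes was 0.02. On this log2 scale large changes were mostly falls: 153 genes were called lower by a log2 fold change of 3 or more, against 26 called higher by as much. Because the scale shrinks changes at low levels, this holds for the scale and not for ratios as deposited. As deposited, 93 genes were at most 0.1 FPKM in every LL library and at least 1 FPKM in every LG library. Only 17 genes showed the reverse. Leaving out each library in turn kept 1978 of the 2544 calls in every fit, and 62 called genes were not tested in at least 1 of those fits because too few libraries reached the filter. The scaling sets where 0 lies: without it the median of all genes was 0.93, and with scaling to the 12 reference genes listed together at the end of the table it was 0.63. Directions below are therefore relative to the middle of all genes. The shares of all genes called, 10.7% higher and 6.61% lower, are the background for the count of each list. No list was tested as a set. Unscaled, the medians of 23 of the 43 gene lists described below had the opposite sign, and of 20 with reference gene scaling, so the counts without scaling stand beside each list. Those counts have a background of their own: without scaling, 6698 of all 14701 genes were called higher and 345 lower. A list with many genes called higher without scaling may therefore differ little from all genes. Under all 4 scalings tried (median ratio, none, quantile, reference genes), 1239 genes were called higher (8.43%) and 341 lower (2.32%).

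**Figure D1:**
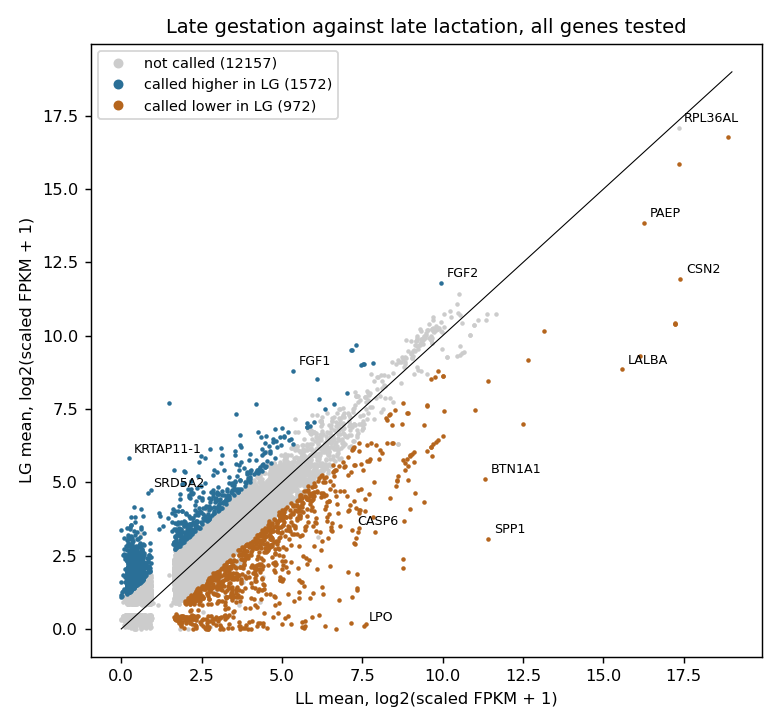
Mean level of each gene tested in LL (x axis) and LG (y axis), in log2(scaled FPKM + 1), with the line of equal levels. Blue points are the 1572 genes called higher in LG, orange points the 972 called lower, and the empty bands near the axes are ranges of low level that hold almost no gene.

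The low values of the table have an empty range, and many of the genes called had a stage mean below it. Among the 22112 genes of its first part, which runs from RPL36AL to ZPLD1 almost strictly by falling LG mean, no gene had an LL mean between 0.497 and 1.17 FPKM as deposited, and none had an LG mean between 0.497 and 0.977 FPKM. On either side of the LL range genes were plentiful, with 1234 at an LL mean of 0.25 to 0.5 FPKM and 1650 at 1 to 1.5 FPKM. In the next 1375 genes, which run in alphabetical order from AACS to ZNF75D, 9 genes had an LL mean of 0.5 to 1 FPKM and 21 had such an LG mean. As deposited, a gene of the first part that crossed the empty range therefore differed by at least its width in the higher stage. The scaling, with factors below 1 in LL and above 1 in LG, then narrowed this difference for rises and widened it for falls. The part of the empty range in the calls was not tested. Of the 1572 genes called higher, 1212 had an LL mean below 0.5 FPKM, whereas 149 of the 972 called lower had such an LG mean. Among the 11689 genes with both stage means at or above 0.5 FPKM, 360 were called higher (3.08%) and 823 lower (7.04%). Counts on this narrower set are given below for each list in which the number called higher or lower changed by 2 or more. The set leaves out, by its rule, every gene that is very low in 1 stage.

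**Figure D2:**
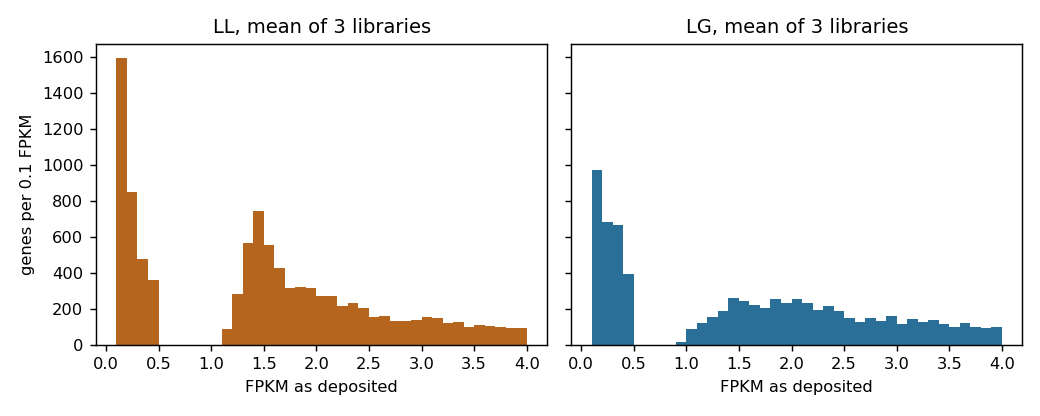
Genes of the table's first part per 0.1 FPKM of stage mean, as deposited, for LL (left) and LG (right), from 0.1 to 4 FPKM. No gene lies between 0.497 and 1.17 FPKM in LL or between 0.497 and 0.977 FPKM in LG.

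The place of a gene in the table also went with its fold change. The 13314 tested genes of the first part had a median of 0.05, with 1394 called higher and 415 lower. The 1375 of the alphabetical part had a median of -0.68, with 178 called higher and 550 lower. The last 12 genes are commonly used as references, and 7 of them were called lower. Among them GAPDH, a glycolytic enzyme, stood as deposited at 166, 169 and 177 in LL and 176, 176 and 159.9 in LG, nearly level, and after scaling at 334, 305 and 292 in LL and 147, 143 and 122 in LG (log2FC -1.17 ± 0.15, adjusted p = 0.00024). The cytoskeletal ACTB behaved alike (log2FC -1.14 ± 0.14, adjusted p = 0.00022), while HPRT1 of purine salvage did not differ beyond its spread (log2FC 0.13 ± 0.17, adjusted p = 0.54). List members were spread unevenly over these parts. The alphabetical part held all 7 milk protein genes tested, all 11 minor milk protein genes, 16 of 24 cholesterol genes and 60 of 78 ribosomal protein genes. It held 1 of 43 mitosis genes and 1 of 44 DNA replication genes. List values below are set beside all genes and not beside these parts. The part of the table's order in the calls was not tested.

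The markers fixed for cell types matched mammary tissue in both stages. The luminal keratin KRT8 stood at 80.8, 67.1 and 78.4 in LL and 66.1, 73.7 and 77.9 in LG, and ELF5, a factor of secretory alveolar cells, at 673, 676 and 439.8 in LL and 451, 408 and 498 in LG. Neither was called (log2FC -0.05 ± 0.28, adjusted p = 0.89 for KRT8 and log2FC -0.37 ± 0.25, adjusted p = 0.24 for ELF5), and their LL and LG values overlapped. The basal keratin KRT14 (-0.28) and the smooth muscle actin ACTA2 of myoepithelium (0.05) were not called either. ADIPOQ, the defining hormone of fat cells, was at or below 0.41 FPKM as deposited in all 6 libraries. KRT1 of epidermis and the erythroid enzyme ALAS2 were listed at 0 in all 6, and the muscle genes ACTA1, CKM and MYLPF were at or below 0.11 FPKM. Other markers of epidermis and hair were present. KRT10 stood at 2.42 to 5.21 FPKM in the 6 libraries and was not called, and KRTAP11-1 was called higher in LG (5.44). PTPRC, which marks all leukocytes, was not called (7.19, 5.35 and 6.82 in LL and 8.69, 10.5 and 6.41 in LG, log2FC 0.34 ± 0.32, adjusted p = 0.40).

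All 7 milk protein genes tested were lower in LG, with a median log2 fold change of -6.799 (0 higher and 7 lower without scaling). Of the 7, 3 have linked values (next paragraph), and the median is the value of one of these, CSN3. It therefore counts 1 observation 3 times. LALBA, which encodes alpha-lactalbumin, the whey protein that turns a galactosyltransferase into lactose synthase, stood at 67505, 53769 and 25808 in LL and 901, 397 and 99.2 in LG (log2FC -7.104 ± 0.68, adjusted p = 4.6e-05). It varied 9.08-fold among the LG goats, yet its highest LG value lay far below the lowest LL value. CSN2, beta-casein, stood at 196724, 183531 and 137809 in LL and 3216, 4899.7 and 3743 in LG (log2FC -5.45 ± 0.32, adjusted p = 3.7e-06). PAEP, the whey carrier beta-lactoglobulin, fell much less, with 78205, 85677 and 71885 in LL and 12056, 17355 and 15215 in LG (log2FC -2.41 ± 0.22, adjusted p = 3.7e-05), and held 2.48% of the summed FPKM in LG. GLYCAM1, a mucin-like glycoprotein of whey, was at 5755, 5584 and 6103 in LL and 204, 121 and 57.3 in LG (log2FC -5.68 ± 0.37, adjusted p = 6.0e-06). The order of the LG levels, PAEP above CSN2 above LALBA, differed from that of LL, where CSN2 was the highest of the 3. Quantile normalization, which replaces the highest values of each library by common ones, took CSN2 out of the calls and gave PAEP the opposite sign.

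The other 3 caseins cannot be read as separate measurements, because their values are linked. CSN1S1 (chromosome 6, 85978463 to 85995270), CSN1S2 (86076845 to 86093539) and CSN3 (86197263 to 86211376), which encode alpha-S1-, alpha-S2- and kappa-casein, share the plus strand within one stretch of the chromosome, and the table names no genome build for these positions. As deposited, CSN1S1 stood at 90859.5, 92119 and 68202 in LL and 1236, 1959 and 1934 in LG. CSN3 exceeded it by 14.1 to 14.6 FPKM and CSN1S2 by 1.76 to 3.30 FPKM in every one of the 9 libraries, over levels of CSN1S1 from 14.5 to 92119 FPKM. The uncharacterized gene LOC102178810, between CSN1S2 and CSN3, moved with them on a straight line at a lower level. CSN2 lies inside the same stretch (86006250 to 86015321) on the minus strand and had values of its own. The linked genes had nearly the same fold change (-6.81 for CSN1S1, -6.81 for CSN1S2, -6.799 for CSN3), which amounts to 1 observation and not 3.

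Such links recur through the table. Neighbours within 8 genes whose 9 values fall on one straight line, with a residual of at most 1% of the range, made up 621 genes in 231 groups. Adding pairs that differ by one amount in every library, or by one amount plus a recurring set (1.0, 1.3 and 1.5 FPKM in LL1 to LL3 and 1.5, 1.2 and 1.0 in LG1 to LG3, as between BAX and FTL), gave 1504 genes in 645 groups. All linked pairs lay on one strand, 555 groups were pairs, and 36.0% of the genes had only a LOC symbol. The 3 largest groups, of 36, 32 and 20 genes, are LOC genes of chromosomes 4 (14517033 to 14984436) and 10 (77393566 to 78140204, and 78422799 to 79219515), and none of their members was called. Of the 1500 linked genes that were tested, 43 were called higher and 145 lower, and the fold change of such a gene cannot be assigned to one of the neighbours. Genes named below that are linked are FASN with CCDC57, BSCL2 with LRRN4CL, B4GALT1 with SMU1, CLDN7 with CTDNEP1, KRT5 with KRT6A, RPL7 with C14H8orf89, C7 with CARD6, and PECAM1, KRT14 and C1R with LOC genes.

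Some of the highest values stood at 3 neighbours on chromosome 10. MGAT2 (60373610 to 60376239), a Golgi enzyme of N-glycan branching, held 24.3% of the summed FPKM in LL and 18.8% in LG, on a mean of 3 goats each. As deposited it stood at 306375, 274224 and 205214 in LL and 135343, 126364 and 162120.3 in LG. DNAAF2 (60362975 to 60373391), an assembly factor of ciliary dynein, stood at 101628, 83381 and 86918 in LL and 66412, 81675 and 73601 in LG. RPL36AL (60376270 to 60377558), a ribosomal protein gene, stood at 101629, 83382 and 86919.9 in LL and 166414, 181676 and 173602 in LG. It exceeded DNAAF2 by 1.0, 1.3 and 1.5 FPKM in LL and by 100001.5, 100001.2 and 100001.0 FPKM in LG, the same amounts but for 100000 FPKM. The added 100000 FPKM also stood in DP2 and DP3 but not in DP1, so it divided one stage. After scaling, DNAAF2 (log2FC -1.47 ± 0.26, adjusted p = 0.0016) and MGAT2 (log2FC -2.06 ± 0.24, adjusted p = 0.00013) were called lower and RPL36AL was not (log2FC -0.24 ± 0.24, adjusted p = 0.44). Quantile normalization turned the sign of DNAAF2, and without scaling neither was called.

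**Figure D3:**
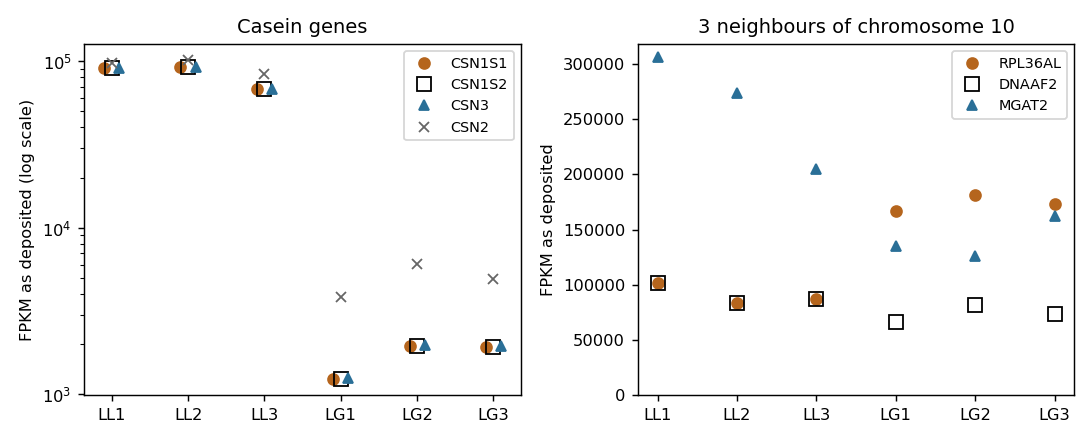
Values as deposited (FPKM) in the 3 LL and 3 LG libraries for 4 casein genes (left, log scale) and for 3 neighbours of chromosome 10 (right). CSN1S1, CSN1S2 and CSN3 coincide in every library while CSN2 does not, and RPL36AL coincides with DNAAF2 in LL but lies about 100000 FPKM above it in LG.

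Among the minor milk proteins, 8 of 11 genes tested were called lower and 0 higher (median -2.76, 3 higher and 7 lower without scaling). SPP1, osteopontin, an acidic phosphoprotein of milk, showed the largest change of any gene named, with 3898, 2071 and 2274 in LL and 11.9, 2.72 and 7.72 in LG (log2FC -8.46 ± 0.42, adjusted p = 1.8e-06). LPO, the antibacterial lactoperoxidase, stood at 297, 107 and 151 in LL and 0.117, 0.0324 and 0.0533 in LG (log2FC -7.31 ± 0.29, adjusted p = 6.6e-07), close to nothing in all 3 LG goats. BTN1A1, butyrophilin of the milk fat globule membrane, stood at 3059, 2614 and 2031 in LL and 31.3, 19.97 and 50.01 in LG (log2FC -6.28 ± 0.29, adjusted p = 1.3e-06). PIGR, which carries immunoglobulin A across the epithelium, stood at 988, 720.3 and 737 in LL and 97.9, 42.6 and 34.03 in LG (log2FC -3.92 ± 0.68, adjusted p = 0.0013). XDH, which binds butyrophilin at the fat globule, was much less reduced (1158, 925 and 679 in LL and 397, 424 and 503 in LG, log2FC -1.03 ± 0.21, adjusted p = 0.0032), and its call was lost without LL1 or LG1 (log2FC -0.96 to -0.86, adjusted p 0.011 to 0.013). No LG value of these genes reached the LL range. LPO passed the filter through the LL libraries alone, and drops out of the test when any LL library is left out, since fewer than 3 libraries then reach 0.5 FPKM.

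The genes of milk fat were split. Of 17 fatty acid synthesis genes tested, 7 were called lower and 3 higher (median -0.47, 6 higher and 2 lower without scaling). SCD, the desaturase that makes oleate, fell furthest, with 704, 1539 and 817 in LL and 35.8, 59.5 and 185 in LG (log2FC -3.69 ± 0.54, adjusted p = 0.00053). ACSS1, which activates acetate, stood at 83.9, 97.8 and 70.3 in LL and 7.94, 14.9 and 16.3 in LG (log2FC -2.64 ± 0.27, adjusted p = 6.8e-05). FADS1, the delta-5 desaturase, stood at 57.1, 42.2 and 39.9 in LL and 2.15, 8.16 and 29.9 in LG (log2FC -2.28 ± 0.64, adjusted p = 0.015). FASN, fatty acid synthase, stood at 1500.3, 962 and 617 in LL and 290.1, 378 and 508 in LG (log2FC -1.33 ± 0.33, adjusted p = 0.0083), in values it shares with CCDC57. ACACA, which makes its substrate malonyl-CoA, was at 32.004, 37.7 and 20.02 in LL and 14.3, 13.5 and 13.9 in LG (log2FC -1.01 ± 0.20, adjusted p = 0.0030) and lost its call without LL1, LL2 or LG2 (log2FC -0.99 to -0.84, adjusted p 0.011 to 0.013). Higher instead were ELOVL6, an elongase (4.38, 4.59 and 3.25 in LL and 21.6, 8.79 and 14.8 in LG, log2FC 1.59 ± 0.30, adjusted p = 0.0023), OXSM of the mitochondrial pathway (log2FC 1.29 ± 0.18, adjusted p = 0.00042) and ACLY, which frees acetyl-CoA from citrate (log2FC 1.03 ± 0.17, adjusted p = 0.0011). The ACLY call was lost without LL3, LG1 or LG3 (log2FC 0.93 to 0.99, adjusted p 0.0051 to 0.0063). Of the genes named here, SCD, ACSS1, ELOVL6 and OXSM were called under all 4 scalings.

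In the uptake list 5 of 14 genes were called lower and 0 higher (median -0.68, 4 higher and 3 lower without scaling), and in the triglyceride list 5 of 17 were lower and 0 higher (median -0.39, 6 higher and 3 lower without scaling). LPL, the lipase that frees fatty acids from plasma lipoproteins, stood at 578, 859 and 598 in LL and 22.7, 15.3 and 19.6 in LG (log2FC -5.07 ± 0.24, adjusted p = 1.6e-06). FABP3, which binds them in the cell, stood at 2443, 2722 and 1053 in LL and 106, 116 and 301 in LG (log2FC -3.62 ± 0.49, adjusted p = 0.00033). ACSL1, an acyl-CoA synthetase, changed by -2.998 (adjusted p = 0.00028) and DBI, an acyl-CoA binding protein, by -2.08 (adjusted p = 0.00016). LPIN1, which makes diacylglycerol, was near 1 in LG (91.7, 133 and 97.9 in LL and 0.701, 0.940 and 1.34 in LG, log2FC -5.76 ± 0.21, adjusted p = 4.5e-07). CIDEA, a lipid droplet protein, stood at 345, 393 and 255 in LL and 19.1, 22.3 and 21.6 in LG (log2FC -3.89 ± 0.24, adjusted p = 4.7e-06). GPAT4, which starts the esterification, stood at 213, 179 and 137 in LL and 18.9, 28.998 and 31.8 in LG (log2FC -2.695 ± 0.22, adjusted p = 2.1e-05). BSCL2, seipin, changed by -1.67 (adjusted p = 8.3e-05), together with its linked neighbour LRRN4CL, whereas DGAT1, of the last step, was not called (log2FC -0.39 ± 0.14, adjusted p = 0.039). In all but DGAT1 the lowest LL value was at least 2.34 times the highest LG value.

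Of the cholesterol genes, 15 of 24 were called lower and 0 higher (median -1.21, 2 higher and 6 lower without scaling). Of the 24, 16 stand in the alphabetical part of the table, which had a median of -0.68. Relative to the median of all genes, the list median stayed between -1.23 and -1.08 under the 4 scalings. MSMO1, a sterol demethylase, stood at 119, 191 and 83.9 in LL and 18.01, 10.04 and 17.7 in LG (log2FC -2.99 ± 0.30, adjusted p = 6.4e-05). TM7SF2, a sterol reductase, stood at 34.7, 45.1 and 22.1 in LL and 3.27, 3.38 and 3.32 in LG (log2FC -2.96 ± 0.23, adjusted p = 1.7e-05). INSIG1, which holds back the pathway's activator, stood at 38.8, 79.4 and 18.9 in LL and 5.81, 7.94 and 4.73 in LG (log2FC -2.503 ± 0.42, adjusted p = 0.0011). These 3 were called under all scalings. The squalene oxidase SQLE did not pass the test (log2FC -0.42 ± 0.26, adjusted p = 0.20).

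In sugar handling, 1 of 15 genes for lactose and glucose was called lower and 2 were higher, near the 6.61% and 10.7% of all genes (median -0.39, 6 higher and 1 lower without scaling). SLC5A1, a sodium-coupled glucose transporter, stood at 37.5, 28.3 and 14.4 in LL and 4.64, 3.48 and 2.51 in LG (log2FC -2.54 ± 0.36, adjusted p = 0.00047). PGM1, which interconverts glucose phosphates, was higher in LG, with 8.08, 9.33 and 7.37 in LL and 43.6, 42.5 and 40.6 in LG (log2FC 2.23 ± 0.13, adjusted p = 3.0e-06), as was the galactose kinase GALK1 (log2FC 1.54 ± 0.17, adjusted p = 0.00011). The glucose transporter SLC2A1 (log2FC 0.52 ± 0.31, adjusted p = 0.19) and B4GALT1, the galactosyltransferase partner of alpha-lactalbumin (log2FC -0.61 ± 0.22, adjusted p = 0.039), were not called. In the NADPH and TCA cycle list, 3 of 30 genes were lower and 0 higher, beside 6.61% and 10.7% of all genes (median 0.00, 19 higher and 0 lower without scaling). The lower ones were led by PDK4, which shuts off pyruvate oxidation (30.5, 112 and 95.4 in LL and 14.3, 14.3 and 19.3 in LG, log2FC -2.06 ± 0.43, adjusted p = 0.0037), and PGD of the pentose phosphate route (log2FC -1.46 ± 0.16, adjusted p = 0.00012). IDH1 (-0.05) and TKT (0.17) overlapped between the stages. Of 55 respiratory chain genes limma called 0, and 22 had an unadjusted p under 0.05. The adjusted p was under 0.05 for 15 of the 55, beside 7383 of all 14701 genes. Without scaling 28 of the 55 were called higher, beside 6698 of all 14701 genes. The mitochondrial gene ND1, the only one of its genome that was tested, stood at 453, 501 and 1083 in LL and 118, 111 and 142 in LG (log2FC -2.34 ± 0.31, adjusted p = 0.00027).

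Transporters of ions and water were lower in 11 of 27 genes and higher in 4 (median -0.71, 6 higher and 5 lower without scaling, and 1 higher and 10 lower of 21 with both stage means at or above 0.5 FPKM). ATP2C2, a Golgi calcium pump, stood at 151, 179.6 and 136 in LL and 7.25, 5.96 and 9.54 in LG (log2FC -4.199 ± 0.18, adjusted p = 1.2e-06). The phosphate carrier SLC34A2 stood at 61.7, 70.99 and 35.03 in LL and 1.26, 7.93 and 3.14 in LG (log2FC -3.64 ± 0.44, adjusted p = 0.00017). SLC39A8, which takes up zinc and manganese, stood at 200.04, 245 and 131 in LL and 17.5, 15.5 and 28.01 in LG (log2FC -3.18 ± 0.28, adjusted p = 3.1e-05). The water channel AQP3 stood at 23.1, 24.2 and 12.5 in LL and 2.05, 3.14 and 1.598 in LG (log2FC -2.66 ± 0.25, adjusted p = 4.1e-05). ATP2B2, the apical calcium pump that fills milk, changed by -1.27 (adjusted p = 0.00010), whereas the calcium channel TRPV6 overlapped (log2FC -0.95 ± 0.50, adjusted p = 0.14). SLC12A2, a chloride cotransporter, was higher (9.64, 10.8 and 9.13 in LL and 27.2, 24.2 and 20.7 in LG, log2FC 1.201 ± 0.17, adjusted p = 0.00051). The water channel AQP5 was listed at 0 in all 3 LL libraries and stood at 26.5, 3.81 and 3.41 FPKM in LG as deposited, so no fold is given for it. ATP2B4 (1.61) and the iodide carrier SLC5A5 (1.09) rose from an LL mean below 0.5 FPKM, and SLC5A5 lost its call without LG1 (log2FC 0.88, adjusted p = 0.017).

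Amino acid carriers were lower in 6 of 23 genes and higher in 3 (median -0.69, 4 higher and 4 lower without scaling). SLC7A5, the large neutral carrier, stood at 31.4, 33.98 and 26.95 in LL and 1.55, 3.39 and 7.02 in LG (log2FC -2.82 ± 0.38, adjusted p = 0.00034). SLC1A1, for glutamate, stood at 74.2, 69.3 and 54.04 in LL and 10.4, 5.65 and 11.2 in LG (log2FC -2.76 ± 0.24, adjusted p = 2.9e-05). SLC7A1, for arginine and lysine, stood at 21.5, 31.9 and 32.4 in LL and 2.72, 4.03 and 10.7 in LG (log2FC -2.27 ± 0.40, adjusted p = 0.0015). SLC43A1, another neutral carrier, went the other way (9.04, 9.33 and 8.93 in LL and 22.1, 22.2 and 19.2 in LG, log2FC 1.13 ± 0.16, adjusted p = 0.00049). The aminoacyl-tRNA synthetases were lower in 4 of 20 and higher in 0 (median -0.53, 8 higher and 1 lower without scaling), with GARS, for glycine, at 33.8, 40.04 and 46.99 in LL and 6.79, 5.804 and 12.9 in LG (log2FC -2.18 ± 0.30, adjusted p = 0.00038), and CARS (-1.46), YARS (-1.25) and NARS (-1.15) behind it. In the list for the endoplasmic reticulum and secretion, 7 of 45 were lower and 1 higher (median -0.33, 14 higher and 0 lower without scaling). The lower ones included ATF4, which drives the amino acid response (132, 134 and 133 in LL and 23.8, 40.6 and 46.3 in LG, log2FC -1.87 ± 0.24, adjusted p = 0.00022), its stress partner DDIT3 (log2FC -1.72 ± 0.38, adjusted p = 0.0048), the chaperone DNAJB9 (log2FC -1.83 ± 0.24, adjusted p = 0.00031) and the signal peptidase subunit SEC11C (log2FC -1.61 ± 0.19, adjusted p = 0.00014), while the coat protein SEC24C was higher (log2FC 1.102 ± 0.12, adjusted p = 0.00011). Of these genes, only SLC7A5, SLC1A1, SLC7A1, SLC43A1, GARS and SEC24C were called under all 4 scalings.

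Of 78 ribosomal protein genes 74 had a positive fold change, with a median of 0.46 beside 0.02 for all genes. Limma called 0 higher, and 49 had a positive fold change with an unadjusted p under 0.05. The adjusted p was under 0.05 for 38 of the 78, beside 7383 of all 14701 genes. Without scaling 74 were called higher, beside 6698 of all 14701 genes. With reference gene scaling 69 were called higher, beside 4143 of all genes. Relative to the median of all genes, the list median was 0.44 to 0.71 under the 4 scalings. The single one called lower was RPL7 (677, 857 and 654 in LL and 274, 129.7 and 184 in LG, log2FC -1.95 ± 0.32, adjusted p = 0.0010), which is linked with C14H8orf89. RPL23, among the most abundant of them in LG, stood at 1120.1, 1348 and 1147 in LL and 2097, 1839 and 1637 in LG (log2FC 0.62 ± 0.17, adjusted p = 0.012), while RPL13A differed less (log2FC 0.27 ± 0.16, adjusted p = 0.20). EEF1A1, the elongation factor that brings tRNA to the ribosome, was also among the 10 most abundant genes of LG (1372, 1632 and 1408 in LL and 2618, 2896 and 2739 in LG, log2FC 0.91 ± 0.14, adjusted p = 0.00080), as were PAEP, CSN2, FGF2 and the 3 neighbours of chromosome 10. In the list of translation factors 3 of 34 were lower and 0 higher (median 0.23, 23 higher and 0 lower without scaling), namely EIF1 (-1.83), EIF2S2 (-1.23) and EIF5 (-1.01), of which EIF5 lost its call without LL2, LL3 or LG2 (log2FC -0.98 to -0.87, adjusted p 0.0037 to 0.0046).

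**Figure D4:**
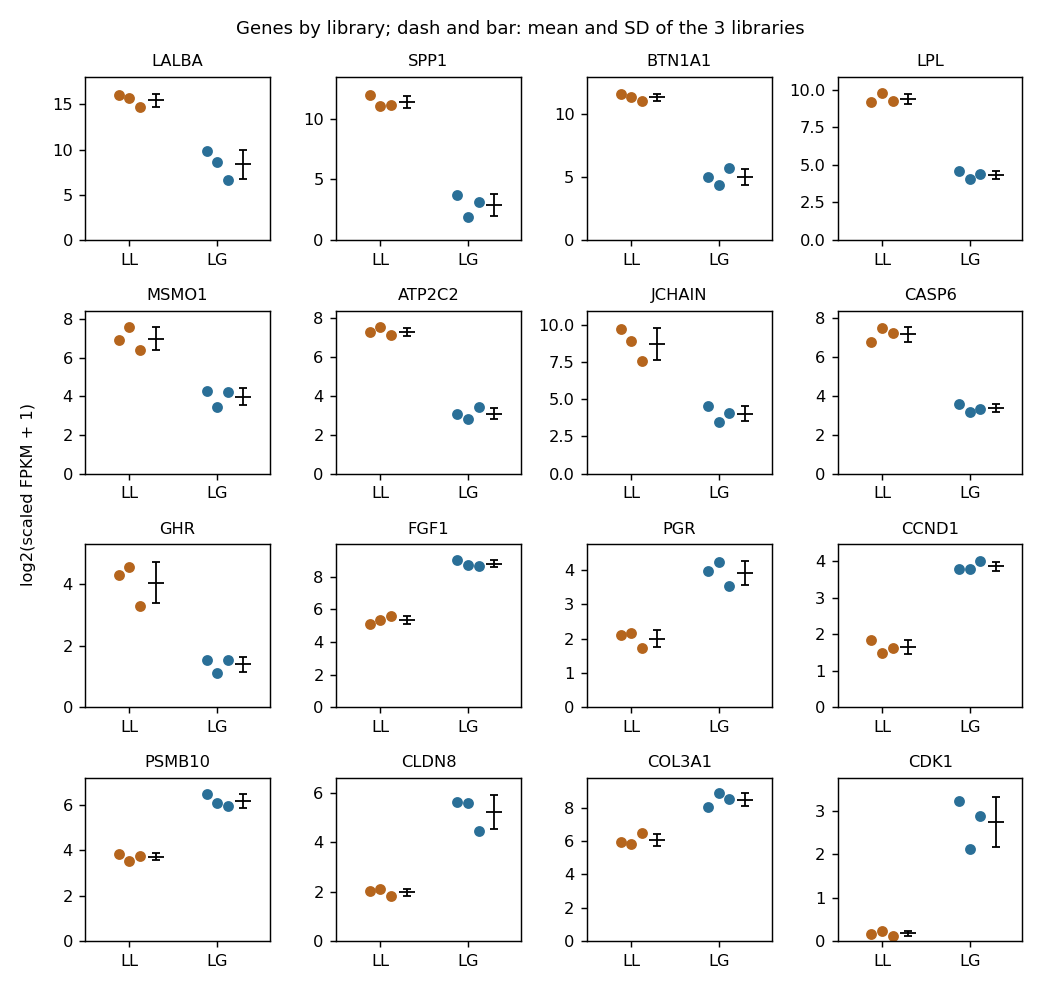
Level of 16 genes in each of the 3 LL and 3 LG libraries, in log2(scaled FPKM + 1), with the mean and SD of each stage beside the points. The first 9 genes are lower in LG and the last 7 higher, and in none do the stages overlap.

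In the list of growth factors and their receptors, 8 of 34 were called higher and 6 lower (median -0.11, 15 higher and 2 lower without scaling, and 6 higher and 5 lower of 27 with both stage means at or above 0.5 FPKM). Of its 4 fibroblast growth factors, FGF10 was not called (log2FC 0.73 ± 0.13, adjusted p = 0.0015) and the other three were higher. FGF1 stood at 33.1, 38.8 and 47.6 in LL and 523, 425 and 395 in LG (log2FC 3.46 ± 0.19, adjusted p = 2.6e-06). FGF7, a stromal factor that acts on epithelium, stood at 2.63, 3.49 and 3.96 in LL and 20.2, 18.6 and 25.2 in LG (log2FC 2.36 ± 0.29, adjusted p = 0.00021). FGF2 stood at 539.6, 1176 and 1245 in LL and 3661, 3639.6 and 3440.2 in LG (log2FC 1.95 ± 0.30, adjusted p = 0.00067), and in LG it held 0.595% of the summed FPKM, more than any ribosomal protein gene except RPL36AL. Each of the 9 values of these 3 genes in LG exceeded every LL value of the same gene. ERBB3, a receptor for neuregulins, was higher (4.68, 6.54 and 5.96 in LL and 18.96, 28.8 and 9.35 in LG, log2FC 1.46 ± 0.38, adjusted p = 0.011). Among those lower, IGFBP5, which binds insulin-like growth factors and is known from the involuting gland, stood at 68.1, 71.4 and 55.4 in LL and 10.2, 15.96 and 7.64 in LG (log2FC -2.48 ± 0.25, adjusted p = 6.7e-05). TNFSF11, RANK ligand, stood at 4.94, 5.604 and 1.45 in LL and 0.259, 0.316 and 0.266 in LG (log2FC -1.84 ± 0.46, adjusted p = 0.0084). The calls of PTHLH, the calcium-mobilizing hormone of the lactating gland (log2FC -2.03 ± 0.67, adjusted p = 0.029), and of the EGF receptor ligand AREG (log2FC -1.76 ± 0.62, adjusted p = 0.039) were less firm: PTHLH lost its call without LL1, LG1 or LG3 (log2FC -1.93 to -1.62, adjusted p 0.078 to 0.11), and AREG without LL1, LL2, LL3, LG1, LG2 or LG3 (log2FC -1.996 to -1.57, adjusted p 0.056 to 0.11).

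Hormone receptors went both ways, with 5 of 26 called higher and 4 lower (median -0.14, 9 higher and 1 lower without scaling). PGR, the progesterone receptor, stood at 3.31, 3.51 and 2.296 in LL and 14.7, 17.8 and 10.6 in LG (log2FC 1.91 ± 0.23, adjusted p = 0.00017). ESR1, the estrogen receptor that induces it, stood at 14.4, 7.65 and 10.04 in LL and 26.8, 25.5 and 24.1 in LG (log2FC 1.21 ± 0.30, adjusted p = 0.0077). OXTR, the oxytocin receptor of myoepithelium, stood at 0.1005, 0.307 and 0 in LL and 5.24, 3.07 and 3.58 in LG (log2FC 2.11 ± 0.23, adjusted p = 0.00010), from LL values that lie below the empty range. The leptin receptor LEPR was higher as well (log2FC 1.47 ± 0.15, adjusted p = 6.4e-05). GHR, the growth hormone receptor, was lower (18.8, 22.7 and 8.82 in LL and 1.89, 1.18 and 1.88 in LG, log2FC -2.66 ± 0.31, adjusted p = 0.00014), as were ADIPOR2 (-1.83) and the thyroid hormone receptor THRB (-1.395). SOCS3, an inhibitor of cytokine signalling, was called lower (log2FC -1.13 ± 0.37, adjusted p = 0.029) but not without LL2, LL3, LG1 or LG3 (log2FC -1.098 to -0.98, adjusted p 0.075 to 0.091). PRLR, the prolactin receptor, was at 54.7, 51.4 and 42.2 in LL and 69.8, 64.2 and 94.1 in LG and fell short of the fold asked for (log2FC 0.60 ± 0.22, adjusted p = 0.045). INSR (-0.30) and SOCS2 (0.60) overlapped between the stages. In steroid metabolism 2 of 14 genes were higher and 1 lower (median 0.17, 8 higher and 0 lower without scaling, and 0 higher and 1 lower of 10 with both stage means at or above 0.5 FPKM). SRD5A2, which reduces testosterone and progesterone, rose, with 0.542, 0.651 and 1.14 in LL and 23.5, 15.97 and 32.3 in LG (log2FC 3.77 ± 0.25, adjusted p = 6.0e-06), HSD17B12 was lower (log2FC -1.82 ± 0.18, adjusted p = 6.3e-05), and HSD11B2, which inactivates cortisol, was higher (log2FC 1.02 ± 0.37, adjusted p = 0.042) but not without LL1, LL2, LL3, LG2 or LG3 (log2FC 0.66 to 1.14, adjusted p 0.068 to 0.15).

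Genes of cell division were higher in LG, mostly from very low LL values. In the mitosis list 23 of 43 were called higher and 0 lower (median 1.05, 30 higher and 0 lower without scaling), and in the DNA replication list 24 of 44 were higher and 0 lower (median 1.05, 34 higher and 0 lower without scaling). CDK1, the kinase that drives mitosis, stood at 0.121, 0.181 and 0.0826 in LL and 8.43, 3.33 and 6.35 in LG (log2FC 2.57 ± 0.27, adjusted p = 7.5e-05), and its cyclin CCNB1 at 0, 0 and 0.396 in LL and 7.55, 3.51 and 5.33 in LG (log2FC 2.48 ± 0.23, adjusted p = 3.8e-05). CDC20, of the anaphase complex (log2FC 2.32 ± 0.14, adjusted p = 3.5e-06), and NUSAP1, of the spindle (log2FC 2.33 ± 0.20, adjusted p = 2.8e-05), moved alike. TOP2A, which untangles replicated chromosomes, stood at 1.31, 0.868 and 1.64 in LL and 13.3, 6.64 and 8.76 in LG (log2FC 2.19 ± 0.24, adjusted p = 9.6e-05). MKI67, the common marker of proliferation, stayed under the fold asked for (0.161, 0.163 and 0.281 in LL and 1.24, 0.867 and 0.936 in LG, log2FC 0.74 ± 0.14, adjusted p = 0.0021). Among replication genes, the helicase subunits MCM4 (0.161, 0.199 and 0.231 in LL and 5.33, 3.56 and 4.89 in LG, log2FC 2.21 ± 0.14, adjusted p = 5.1e-06) and MCM2 (log2FC 1.58 ± 0.13, adjusted p = 2.0e-05), the thymidylate synthase TYMS (log2FC 2.197 ± 0.14, adjusted p = 6.0e-06), the flap nuclease FEN1 (log2FC 2.01 ± 0.14, adjusted p = 7.0e-06), the nucleotide reductase RRM2 (log2FC 1.18 ± 0.22, adjusted p = 0.0021) and UHRF1, which keeps DNA methylation (2.35, 1.61 and 3.34 in LL and 10.4, 8.97 and 26.6 in LG, log2FC 2.12 ± 0.35, adjusted p = 0.0010), were higher. PCNA, the sliding clamp, was not called (9.12, 8.604 and 9.15 in LL and 16.7, 10.1 and 16.03 in LG, log2FC 0.59 ± 0.18, adjusted p = 0.022). Of the genes called higher, 22 of the 23 mitosis genes and 17 of the 24 replication genes had an LL mean below 0.5 FPKM. With both stage means at or above 0.5 FPKM, 1 of 15 mitosis genes and 7 of 24 replication genes were called, with medians of -0.06 and 0.35. That set leaves out the genes lowest in LL by its rule, so it cannot decide what part the empty range had in these calls, which was not tested.

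At the entry into the cycle, 4 of 23 genes were called higher and 1 lower (median 0.40, 11 higher and 1 lower without scaling, and 2 higher and 1 lower of 17 with both stage means at or above 0.5 FPKM). CCND1, cyclin D1, stood at 2.59, 1.79 and 2.097 in LL and 12.9, 12.9 and 15.1 in LG (log2FC 2.21 ± 0.25, adjusted p = 0.00011), from an LL mean of 1.18 FPKM as deposited, just above the empty range. The inhibitor CDKN1C was higher (2.95, 2.42 and 2.61 in LL and 10.9, 11.1 and 5.85 in LG, log2FC 1.45 ± 0.32, adjusted p = 0.0044), and CDK2 (2.25) rose from an LL mean below 0.5 FPKM. CDKN1A, the inhibitor p21, was lower (6.89, 12.9 and 9.79 in LL and 0.534, 1.15 and 2.42 in LG, log2FC -2.24 ± 0.37, adjusted p = 0.0010).

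In the apoptosis list 7 of 30 genes were called lower and 3 higher, beside 6.61% and 10.7% of all genes (median -0.23, 12 higher and 6 lower without scaling, and 1 higher and 7 lower of 25 with both stage means at or above 0.5 FPKM). CASP6, a caspase that carries out cell death, stood at 107, 179.8 and 147 in LL and 11.04, 8.12 and 8.81 in LG (log2FC -3.798 ± 0.24, adjusted p = 4.8e-06). CASP9, which starts the mitochondrial route, stood at 31.1, 34.1 and 29.5 in LL and 2.296, 2.68 and 1.89 in LG (log2FC -3.31 ± 0.18, adjusted p = 2.6e-06). BCL2L11, the death-promoting BIM, stood at 21.1, 19.6 and 17.9 in LL and 0.868, 1.36 and 0.814 in LG (log2FC -3.36 ± 0.16, adjusted p = 1.6e-06). Each LL value of these 3 genes was at least 9.74 times the highest LG value of the same gene, and the 3 were called under all scalings. BAK1, a pore former of the same family, went the other way (4.54, 4.83 and 4.56 in LL and 15.1, 14.8 and 14.4 in LG, log2FC 1.48 ± 0.11, adjusted p = 1.1e-05), and BOK, called higher (1.101), lost its call without LG2 (log2FC 0.97, adjusted p = 0.0040). Lysosomal genes, which serve the breakdown of cell material, were lower in 3 of 41 and higher in 1, beside 6.61% and 10.7% of all genes (median -0.32, 11 higher and 0 lower without scaling). The protease CTSL (log2FC -1.33 ± 0.36, adjusted p = 0.012), the sterol carrier NPC2 (log2FC -1.22 ± 0.21, adjusted p = 0.0015) and CD63 (log2FC -1.04 ± 0.22, adjusted p = 0.0035) were lower, of which CD63 lost its call without LL1 or LG1 (log2FC -0.998 to -0.93, adjusted p = 0.014). CTSD (log2FC -0.65 ± 0.21, adjusted p = 0.024) and CTSB (log2FC 0.08 ± 0.24, adjusted p = 0.81) were not called. TFEB, which switches lysosomal genes on, was higher (0.121, 0.145 and 0.149 in LL and 2.51, 2.602 and 2.45 in LG, log2FC 1.63 ± 0.10, adjusted p = 5.1e-06) from LL values below the empty range.

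Genes of B and plasma cells were lower in 5 of 15 and higher in 1 (median -0.73, 1 higher and 3 lower without scaling). JCHAIN, the joining chain of secreted immunoglobulin A, stood at 832, 491 and 189 in LL and 22.3, 10.1 and 16.1 in LG (log2FC -4.699 ± 0.59, adjusted p = 0.00022). MZB1, which helps assemble it, stood at 12.3, 8.59 and 3.34 in LL and 0.543, 0.203 and 0.327 in LG (log2FC -2.604 ± 0.46, adjusted p = 0.0015). PIGR, given above, was lower too, whereas FCGRT, the receptor that moves immunoglobulin G, was higher (19.6, 17.8 and 22.7 in LL and 49.7, 46.1 and 50.9 in LG, log2FC 1.25 ± 0.16, adjusted p = 0.00028). DERL3, a further gene of plasma cells, was lower (log2FC -1.11 ± 0.31, adjusted p = 0.013) except without LL1 (log2FC -0.99, adjusted p = 0.047). The B cell markers MS4A1 and CD79A were at or below 0.39 FPKM as deposited in all 6 libraries. Genes of T and NK cells were higher in 7 of 24 and lower in 1 (median 0.54, 12 higher and 0 lower without scaling), and all 7 rose from an LL mean below 0.5 FPKM. With both stage means at or above 0.5 FPKM, 0 of 10 were called higher by limma and 1 lower. Among the 7 called higher, CD5 stood at 0.362, 0.163 and 0.149 in LL and 18.8, 4.61 and 8.45 in LG (log2FC 3.06 ± 0.41, adjusted p = 0.00031). NKG7 stood at 0.623, 0.362 and 0.314 in LL and 5.28, 6.06 and 2.98 in LG (log2FC 1.97 ± 0.26, adjusted p = 0.00032). CD3G stood at 0.522, 0.343 and 0.380 in LL and 4.94, 4.27 and 2.95 in LG (log2FC 1.82 ± 0.41, adjusted p = 0.0051). The kinase LCK stood at 0.281, 0.0904 and 0.363 in LL and 3.56, 4.56 and 1.94 in LG (log2FC 1.76 ± 0.34, adjusted p = 0.0025). CD3D was called (log2FC 1.46 ± 0.40, adjusted p = 0.013) except without LG2 (log2FC 1.24, adjusted p = 0.051), CD3E was not (log2FC 0.78 ± 0.34, adjusted p = 0.083), and IL7R was lower (log2FC -1.22 ± 0.36, adjusted p = 0.019) except without LL1, LG1 or LG3 (log2FC -1.15 to -1.08, adjusted p 0.057 to 0.066).

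Antigen presentation was the list with the highest median, 1.19, and 9 of its 15 genes were called higher and 0 lower, or 14 and 0 without scaling. Its summed level went the other way, with 3512, 3076 and 2705 scaled FPKM in LL and 2430, 2226 and 1850 in LG, and 1 gene had a negative fold change. With both stage means at or above 0.5 FPKM, 7 of 13 were called higher, beside 3.08% of all such genes. The subunits of the immunoproteasome, which cuts peptides for display, were all higher: PSMB10 with 13.5, 10.7 and 12.4 in LL and 89.9, 66.4 and 60.7 in LG (log2FC 2.46 ± 0.17, adjusted p = 8.3e-06), PSMB8 with 12.2, 10.1 and 12.7 in LL and 49.5, 53.97 and 38.6 in LG (log2FC 1.93 ± 0.22, adjusted p = 0.00011) and PSMB9 with 8.98, 4.99 and 6.47 in LL and 26.7, 29.8 and 15.5 in LG (log2FC 1.66 ± 0.29, adjusted p = 0.0015). The peptide transporter TAP2 stood at 6.97, 6.94 and 6.79 in LL and 23.5, 26.1 and 23.02 in LG (log2FC 1.67 ± 0.16, adjusted p = 4.3e-05). In the interferon list 10 of 31 were higher and 0 lower (median 0.68, 20 higher and 0 lower without scaling), with IRF1 at 7.29, 5.89 and 5.57 in LL and 24.2, 31.9 and 16.1 in LG (log2FC 1.75 ± 0.28, adjusted p = 0.00088), the RNA sensor DHX58 (log2FC 1.83 ± 0.21, adjusted p = 0.00013) and the T cell attractant CXCL10 at 0.241, 0.253 and 0.182 in LL and 10.7, 21.5 and 7.19 in LG (log2FC 3.399 ± 0.38, adjusted p = 0.00011). The related CXCL9 (log2FC 1.69 ± 0.52, adjusted p = 0.021) lost its call without LL3 (log2FC 1.72, adjusted p = 0.053). With both stage means at or above 0.5 FPKM, 4 of 19 interferon genes were called higher. ISG15, a widely used interferon-response gene, did not follow (2.89, 2.55 and 1.09 in LL and 1.03, 1.31 and 1.202 in LG, log2FC -0.50 ± 0.37, adjusted p = 0.29).

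Macrophage genes were lower in 6 of 26 and higher in 1 (median -0.39, 8 higher and 0 lower without scaling, and 1 higher and 4 lower of 21 with both stage means at or above 0.5 FPKM). The endotoxin receptor CD14 stood at 9.72, 7.83 and 7.89 in LL and 2.63, 4.43 and 2.66 in LG (log2FC -1.18 ± 0.31, adjusted p = 0.011). The oxidase subunit NCF4 stood at 21.9, 30.4 and 20.2 in LL and 9.803, 8.001 and 5.77 in LG (log2FC -1.51 ± 0.20, adjusted p = 0.00031), while CD86, which costimulates T cells, was higher (1.93, 2.404 and 4.56 in LL and 9.54, 14.7 and 10.1 in LG, log2FC 1.68 ± 0.25, adjusted p = 0.00059). Calls of 3 macrophage genes were less firm, CD68 being lost without LL1, LL3, LG1, LG2 or LG3 (log2FC -1.13 to -0.84, adjusted p 0.066 to 0.13), MSR1 without LL3 or LG3 (log2FC -0.90 to -0.89, adjusted p 0.010 to 0.013) and GPNMB without LL3, LG2 or LG3 (log2FC -2.69 to -2.498, adjusted p 0.061 to 0.071). Antimicrobial genes were lower in 6 of 15 and higher in 1 (median -1.16, 4 higher and 2 lower without scaling, and 0 higher and 4 lower of 11 with both stage means at or above 0.5 FPKM), among them the iron trap LCN2 (6.53, 14.8 and 13.01 in LL and 3.61, 2.69 and 1.23 in LG, log2FC -1.82 ± 0.37, adjusted p = 0.0032) and the endotoxin carrier LBP (log2FC -1.92 ± 0.32, adjusted p = 0.0012). Neutrophil genes were lower in 5 of 9 and higher in 1 (median -1.34, 1 higher and 2 lower without scaling, and 0 higher and 1 lower of 2 with both stage means at or above 0.5 FPKM), with MMP9 (log2FC -1.96 ± 0.39, adjusted p = 0.0027) lower and the growth factor receptor CSF3R (log2FC 1.88 ± 0.18, adjusted p = 4.2e-05) higher. S100A9, in both lists, overlapped between the stages and lost its call without LL1, LL3, LG2 or LG3 (log2FC -1.34 to -0.98, adjusted p 0.11 to 0.17), and BPI without LL1, LL2, LL3, LG1 or LG3 (log2FC 1.12 to 1.79, adjusted p 0.080 to 0.13). Chemokines, interleukins and their receptors were lower in 6 of 31 and higher in 4 (median -0.47, 9 higher and 3 lower without scaling, and 1 higher and 4 lower of 22 with both stage means at or above 0.5 FPKM). CXCL8, which draws neutrophils, stood at 20.97, 3.398 and 5.75 in LL and 0.534, 0.203 and 0.266 in LG (log2FC -2.71 ± 0.59, adjusted p = 0.0044), and the receptors IL1R1 (log2FC -2.298 ± 0.29, adjusted p = 0.00024), OSMR (log2FC -2.08 ± 0.33, adjusted p = 0.00077) and LIFR (log2FC -1.81 ± 0.22, adjusted p = 0.00018) were lower, whereas IL15 (log2FC 1.65 ± 0.24, adjusted p = 0.00055) and IL34 (log2FC 1.53 ± 0.29, adjusted p = 0.0023) were higher. Complement was lower in 4 of 20 and higher in 1 (median -0.42, 6 higher and 2 lower without scaling). C5 was as deposited at 3.18, 2.42 and 2.61 FPKM in LL and at 0.04 FPKM in each LG library (log2FC -2.53 ± 0.14, adjusted p = 3.1e-06). It passed the filter through the LL libraries alone and is not tested when any of them is left out. Its receptor C5AR1 changed by -2.27 (adjusted p = 0.0027), the protease CFI rose, with 4.36, 3.001 and 7.78 in LL and 36.6, 35.9 and 19.7 in LG (log2FC 2.42 ± 0.38, adjusted p = 0.00081), and C3 was not called (log2FC -0.67 ± 0.28, adjusted p = 0.074). The call of C7 was lost without LL2, LL3, LG1 or LG2 (log2FC -1.42 to -1.25, adjusted p 0.079 to 0.093), and that of C1R without LL3, LG1 or LG3 (log2FC -0.97 to -0.89, adjusted p 0.043 to 0.049).

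Of 39 collagen and matrix genes 4 were called higher and 1 lower, beside 10.7% and 6.61% of all genes (median 0.28, 19 higher and 1 lower without scaling). The fibrillar collagens COL3A1 (60.4, 54.5 and 88.4 in LL and 268, 470.2 and 367 in LG, log2FC 2.42 ± 0.53, adjusted p = 0.0046) and COL5A2 (6.95, 7.502 and 8.902 in LL and 18.5, 30.6 and 25.97 in LG, log2FC 1.54 ± 0.39, adjusted p = 0.0086) were higher. COL1A1 was higher at 15.1, 16.9 and 26.4 in LL and 63.8, 152 and 64.6 in LG (log2FC 2.12 ± 0.68, adjusted p = 0.026), with LG2 well above the other LG goats, and lost its call without LL1, LL2 or LG2 (log2FC 1.71 to 2.04, adjusted p 0.071 to 0.094). COL1A2, its partner chain, did not pass the test (log2FC 1.68 ± 0.65, adjusted p = 0.054), and COL16A1 (1.12) was lost without LL1 (log2FC 0.89, adjusted p = 0.030). BGN, the proteoglycan biglycan, was lower (92.3, 58.1 and 36.2 in LL and 4.66, 9.13 and 4.74 in LG, log2FC -3.09 ± 0.64, adjusted p = 0.0033). Proteases of the matrix and their inhibitors were higher in 4 of 28 and lower in 3 (median -0.11, 9 higher and 1 lower without scaling, and 1 higher and 2 lower of 16 with both stage means at or above 0.5 FPKM). ADAMTS9 (log2FC 1.54 ± 0.29, adjusted p = 0.0022), ADAMTS2, which trims procollagen (log2FC 1.796 ± 0.44, adjusted p = 0.0082), MMP23B (log2FC 2.26 ± 0.32, adjusted p = 0.00044) and ADAMTS15 (log2FC 1.32 ± 0.32, adjusted p = 0.0076) were higher, and the inhibitors TIMP2 and TIMP3 were lower, TIMP2 (-1.38) except without LL1, LL3, LG1 or LG3 (log2FC -1.36 to -1.21, adjusted p 0.069 to 0.088) and TIMP3 (-1.33) except without LG1 (log2FC -1.11, adjusted p = 0.056). Of 19 tight junction genes, which seal the alveolus, 5 were higher and 1 lower (median 0.11, 11 higher and 0 lower without scaling). CLDN8 rose most, with 3.07, 3.29 and 2.54 in LL and 49.4, 47.8 and 21.02 in LG (log2FC 3.26 ± 0.33, adjusted p = 6.6e-05), and cingulin, CGN, rose as well, with 4.34, 3.94 and 3.402 in LL and 16.9, 18.4 and 11.8 in LG (log2FC 1.75 ± 0.23, adjusted p = 0.00031). CLDN3 came close to the fold asked for (log2FC 0.99 ± 0.20, adjusted p = 0.0030), JAM3 was lower (log2FC -1.36 ± 0.25, adjusted p = 0.0019), and the calls of CLDN7 (1.13) and CGNL1 (1.1) were lost, CLDN7 without LL1 (log2FC 0.99, adjusted p = 0.0051) and CGNL1 without LL1, LG1 or LG2 (log2FC 0.94 to 0.99, adjusted p 0.016 to 0.017).

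Lists for the cell types of the gland are set beside 10.7% of all genes called higher and 6.61% called lower. Of 23 luminal genes 4 were higher and 1 lower (median 0.13, 14 higher and 1 lower without scaling). The factors TFAP2C (2.47, 3.47 and 4.44 in LL and 12.8, 10.04 and 9.05 in LG, log2FC 1.39 ± 0.21, adjusted p = 0.00061) and TFAP2A (log2FC 1.86 ± 0.13, adjusted p = 9.9e-06) were higher, the luminal regulator GATA3 (log2FC 1.105 ± 0.33, adjusted p = 0.020) lost its call without LL2 or LG3 (log2FC 0.82 to 0.99, adjusted p 0.066 to 0.080), and the surface sialoglycoprotein CD24, also of the milk fat globule, was lower (1120.2, 1079.6 and 929.9 in LL and 154, 149 and 213 in LG, log2FC -2.61 ± 0.39, adjusted p = 0.00063). Of 20 basal genes 2 were higher and 1 lower (median -0.34, 5 higher and 0 lower without scaling, and 0 higher and 1 lower of 15 with both stage means at or above 0.5 FPKM): TP63, the defining factor of basal cells, rose, with 0.382, 0.163 and 0.215 in LL and 2.45, 2.59 and 3.36 in LG (log2FC 1.595 ± 0.13, adjusted p = 1.7e-05), OXTR is given above, and the laminin chain LAMA3 was lower (log2FC -1.73 ± 0.29, adjusted p = 0.0012), while KRT5 was not called (59.3, 67.2 and 95.3 in LL and 105.2, 138 and 166 in LG, log2FC 0.88 ± 0.47, adjusted p = 0.15). Endothelial genes were higher in 1 of 26 and lower in 1 (median -0.19, 7 higher and 0 lower without scaling), with APLN, a peptide of sprouting vessels, at 0.321, 0.199 and 0.132 in LL and 6.66, 7.304 and 5.29 in LG (log2FC 2.601 ± 0.15, adjusted p = 3.3e-06) and LYVE1 of lymph vessels lower (log2FC -1.503 ± 0.32, adjusted p = 0.0040). PECAM1 (log2FC -0.91 ± 0.21, adjusted p = 0.0055) and CDH5 (log2FC -0.05 ± 0.24, adjusted p = 0.87) were not called. Adipocyte genes were lower in 3 of 14 and higher in 0 (median -0.29, 2 higher and 1 lower without scaling). The 3 were led by CIDEA, given above with the triglyceride genes. The lipase LIPE lost its call without LL3, LG1 or LG2 (log2FC -1.06 to -0.85, adjusted p 0.070 to 0.077), and PNPLA2 without LL3 or LG1 (log2FC -0.96 to -0.82, adjusted p 0.025 to 0.036). As deposited, the fat cell markers ADIPOQ and PLIN1 were at or below 0.41 and 0.23 FPKM in all 6 libraries. CIDEC stood at 1.0 to 1.87 FPKM and was not called. Of 28 immediate early and heat shock genes, 4 were lower and 3 higher (median 0.17, 14 higher and 0 lower without scaling). ATF3 (log2FC -1.93 ± 0.34, adjusted p = 0.0016), KLF6 (log2FC -1.76 ± 0.21, adjusted p = 0.00018) and JUND (log2FC -1.66 ± 0.34, adjusted p = 0.0033) were lower and the chaperone CRYAB higher (6.27, 9.24 and 12.3 in LL and 32.1, 36.9 and 37.5 in LG, log2FC 1.87 ± 0.21, adjusted p = 0.00011). JUN lost its call without LL1, LL2, LG1 or LG3 (log2FC -1.35 to -1.15, adjusted p 0.063 to 0.084), EGR1 without LL1, LL2, LL3, LG1 or LG2 (log2FC 1.04 to 1.99, adjusted p 0.057 to 0.15) and HSPH1 without LL2 or LG3 (log2FC 0.80 to 1.13, adjusted p 0.019 to 0.053), and FOS was not called (log2FC -0.69 ± 0.81, adjusted p = 0.50). Of the 3 blood and muscle genes tested limma called 0, and 0 had an unadjusted p under 0.05.

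**Figure D5:**
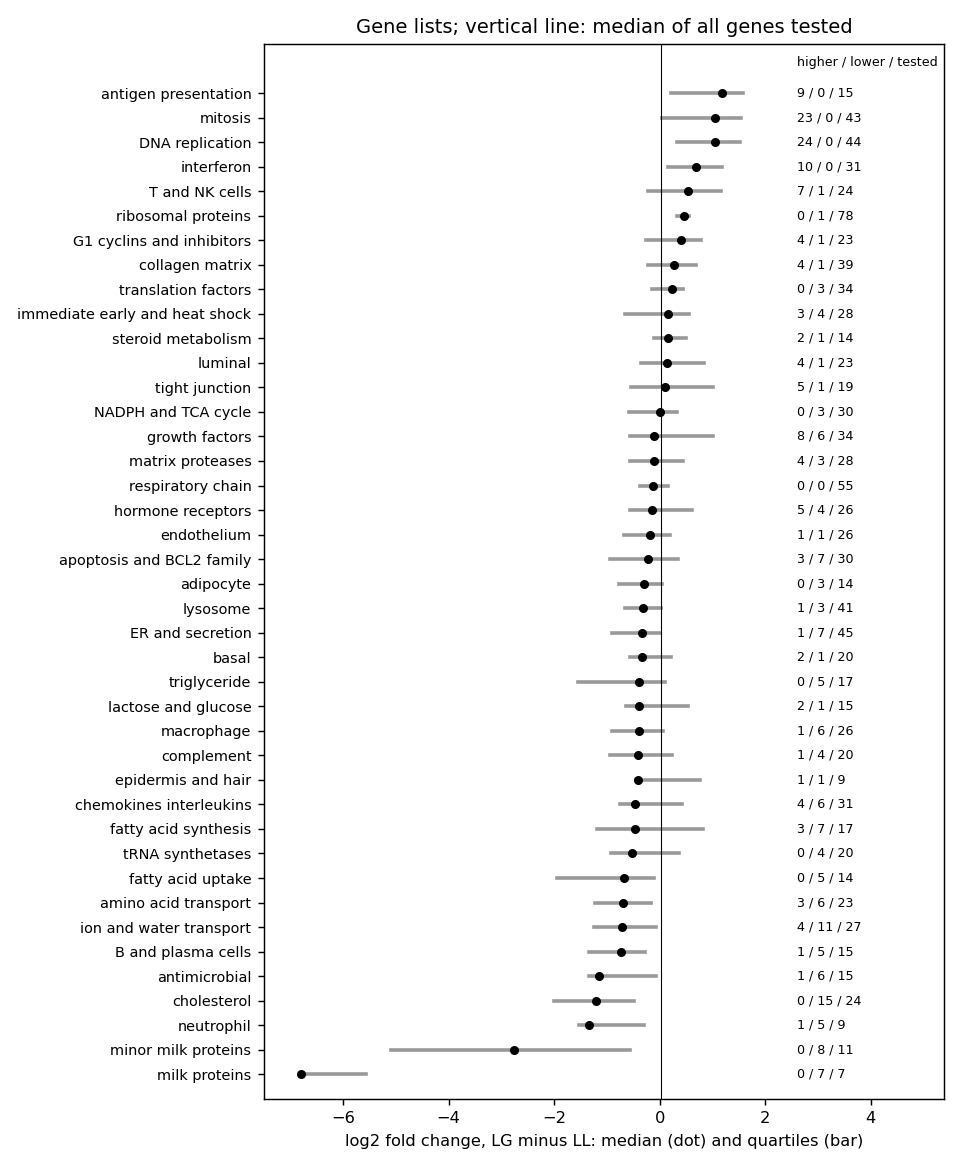
Median (dot) and quartiles (bar) of the log2 fold change LG minus LL for each gene list with at least 5 genes tested, with the number of genes called higher, called lower and tested. The milk protein list lies lowest at -6.799, with 3 of its 7 genes linked, and antigen presentation highest at 1.19. The vertical line marks the median of all genes tested.

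Beyond the lists, the largest rises and falls named by size alone include several genes of other kinds. KRTAP11-1, a keratin-associated protein of hair, stood at 0.181, 0 and 0.347 in LL and 82.2, 57.8 and 25.6 in LG (log2FC 5.44 ± 0.34, adjusted p = 4.7e-06), the largest rise among named genes, while KRT1 was listed at 0 and DSG1 was at or below 0.23 FPKM as deposited in all 6 libraries. In the list for epidermis and hair it was the 1 gene called higher of 9, and TGM3, a transglutaminase of skin (18.3, 20.2 and 28.4 in LL and 0.0167, 0.0324 and 0 in LG, log2FC -4.49 ± 0.25, adjusted p = 3.0e-06), was the 1 called lower. STAC2 (0.784, 0.560 and 1.32 in LL and 10.7, 36.98 and 29.7 in LG, log2FC 3.68 ± 0.42, adjusted p = 0.00013), KL, the co-receptor klotho (0.482, 0.217 and 0.264 in LL and 23.2, 18.4 and 8.49 in LG, log2FC 3.64 ± 0.30, adjusted p = 2.0e-05), and LRP2, the endocytic receptor megalin (1.41, 1.79 and 5.42 in LL and 38.6, 30.1 and 54.2 in LG, log2FC 3.54 ± 0.39, adjusted p = 9.6e-05), followed SRD5A2. SELENBP1, a selenium-binding protein, stood at 16.3, 11.9 and 23.3 in LL and 236, 186 and 190.2 in LG (log2FC 3.54 ± 0.27, adjusted p = 1.2e-05), and ZNF185 (3.27), FAT1, a giant cadherin (3.21), and PLEKHS1 (3.06) completed the 12 largest rises of the rule for named genes, with FGF1, CXCL10 and CLDN8. Of these 12 genes, 6 had an LL mean below 0.5 FPKM. Among the falls, CRISP3, a secreted protein of glands, stood at 403, 159 and 27.3 in LL and 0.0752, 0.211 and 0.0609 in LG (log2FC -6.78 ± 0.75, adjusted p = 0.00010). DNAJC12, a co-chaperone, stood at 228, 168 and 88.6 in LL and 1.54, 1.59 and 1.37 in LG (log2FC -5.92 ± 0.34, adjusted p = 3.1e-06). C9, the last component of the complement pore, stood at 73.9, 85.6 and 51.6 in LL and 0.418, 0.430 and 0.335 in LG (log2FC -5.65 ± 0.17, adjusted p = 2.4e-07). The complement list above did not hold C9, so its counts and median leave this fall out. BPIFA2, a protein of saliva, stood at 81.8, 53.9 and 16.2 in LL and 0.00835, 0 and 0.0228 in LG (log2FC -5.402 ± 0.45, adjusted p = 2.2e-05). SFTPD, the collectin SP-D, stood at 54.7, 69.2 and 30.4 in LL and 0.117, 0.195 and 0.327 in LG (log2FC -5.36 ± 0.24, adjusted p = 1.2e-06). No LG value of any of these 5 reached the LL range of its gene. When any LL library is left out, BPIFA2 and SFTPD are not tested, and the same holds for KRTAP11-1 when any LG library is.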

How the data were processed

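Mammary tissue RNA of 9 Laoshan dairy goats (3 each in LL, DP and LG) was sequenced by the authors on an Illumina HiSeq from TruSeq v2 libraries. Per the labels, reads passed FastQC, Trimmomatic, HISAT2, SAMtools and HTSeq, and the methods of the study also name StringTie. The deposited table gives 1 value per gene and library, read as FPKM although it names no unit, and how values were assigned to genes is not given in the sources used here. Library read totals were not used here and the fragments behind each value are not known, so precision rests on the 3 goats per stage.

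Values were divided by median-ratio factors computed over 15905 genes. Genes that reached 0.5 FPKM in 3 or more of the 9 libraries were tested on log2(scaled FPKM + 1) with limma 3.58.1 (R 4.3.3), empirical Bayes with a mean-variance trend, all 9 libraries and the contrast LG minus LL, with Benjamini-Hochberg adjustment over 14701 genes. An exact permutation test of 3 against 3 cannot give a two-sided p below 0.1, and none is used. The script was tested on simulated data. Gene identifiers were matched to RefSeq (assembly ARS1.2) for names only: 23465 of 23499 matched. Positions are those of the deposited table.

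Named genes were the 12 largest unlinked, non-overlapping changes in each direction with a symbol other than a LOC number and at least 5 FPKM in the higher stage, the anchor genes of 43 lists, up to 4 called genes per list and direction, the 10 most abundant genes of each stage and linked groups holding them. Genes singled out beyond this rule (PTPRC and neighbours of linked genes) were chosen after their values were seen. Some genes that the rule names are not reported here. The comparison, the lists and their members were chosen with earlier results of these data known. Replicate numbers did not pair the goats. Alternatives were other scalings, pseudocounts, filters, a replicate block, a fit of LG and LL alone, and leaving out each library. The script used Python 3.11.15, numpy 2.4.6 and pandas 2.3.3.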

Additional observations from a re-analysis of the deposited data

How the results depend on the processing

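The number of genes called moved with the scaling, the pseudocount and the level of the genes. Without scaling between libraries 7043 genes were called (6698 higher in LG and 345 lower), and with scaling by the 12 reference genes 4610 (4143 and 467). A pseudocount of 0.1 gave 3912 (2359 and 1553), and genes with a mean of at least 10 FPKM in LG or LL gave 821 of 4888 (342 and 479), a subset chosen after seeing the data. An adjusted p under 0.05 with no fold asked for gave 7383 (3760 and 3623). The straight line with a residual of 1% of the range linked 621 genes, with 0.1% 391, with 5% 1376, and together with the rules on amounts (at 1%) 1504. Leaving out each library in turn gave 2400 to 2576 genes called, 1464 to 1622 of them higher and 907 to 996 lower. The replicate numbers did not pair the goats: correlations of deviations from the stage means were 0.058, -0.046 and 0.0036, and a fit with the replicate number as a block called 2564 genes (1583 higher and 981 lower). Taking the recurring amounts off 9330 genes of the first part, chosen after seeing the data, left 2192 of the calls, and the whole fit then called 3135 (1684 higher and 1451 lower). Of the 239 named genes, 22 turned sign without scaling, 15 with reference gene scaling and 6 with quantile normalization. Those called in either fit were, without scaling, ACACA (0.11), C1R (0.019), CD63 (0.13), EIF5 (0.15), IDH1 (1.10), KRT8 (1.11) and XDH (0.15), and with quantile normalization DNAAF2 (1.13) and PAEP (1.601). The list medians as printed changed sign in 23 of 43 lists without scaling, 20 with reference gene scaling, 1 with quantile normalization and 6 with the amounts taken off. Relative to the median of all genes, 40 kept their sign under the 4 scalings, and those for NADPH and the TCA cycle, the respiratory chain and immediate early genes did not. Of the reference genes, GAPDH (0.0010) and ACTB (0.038) lost their calls and turned sign without scaling. The cause of these changes was not tested.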
